A study of Mus musculus with 16 samples.

Results

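The cytotoxic granule genes measured here were 9 granzymes and perforin in mouse skin wounds: Gzma, Gzmb, Gzmc, Gzmd, Gzme, Gzmf, Gzmg, Gzmk, Gzmn and Prf1. The 10 members were selected by gene family after measured values of these arrays had been seen, so their levels and calls are given as a description and carry no p-value. All 10 were on the array, through 11 probes, among 20832 named genes. RNA came from the frozen part of each bisected wound, which included surrounding intact skin, in female mice with 2 full-thickness wounds of 4 mm each. The WT group was C57BL/6J, 10 to 12 weeks old and untreated. The 3 other groups were 10-week-old db/db mice on the C57BLKS/J background, which lack the working long form of the leptin receptor and are a model of type 2 diabetes. The db/db group was untreated, the db/db + vehicle group received sesame oil on the wound daily, and in the db/db + estrogen group the wounds were given daily estradiol benzoate, diluted in that oil, at 0.75 μg/g/day. Each group had 2 arrays labelled day 7 and 2 labelled day 14, described by the submitters as biological replicates, which gave 16 arrays. WT and db/db mice differ in strain as well as in diabetes, so these cannot be told apart here.

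Granzymes are serine proteases stored in the granules of cytotoxic T cells and natural killer (NK) cells, and perforin is the granule protein that forms pores through which granzymes enter a target cell. Granzyme B cuts death proteins such as Bid inside target cells and can also cut matrix and junction proteins outside cells, which is why it has been studied in chronic skin wounds. In the mouse the granzymes fall into groups by gene position. Gzma and Gzmk lie side by side on chromosome 13, Prf1 lies on chromosome 10, and the other 7 members form a cluster on chromosome 14 that runs from Gzme through Gzmd, Gzmg, Gzmn, Gzmf and Gzmc to Gzmb. Gzmc, Gzmd, Gzme, Gzmf and Gzmg are closely related rodent genes, and Gzmn is best known from the testis.

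Promoter windows are shown for 6 genes of the cluster because 5 of them share a proximal sequence and 1 neighbour does not. The windows were 300 bases long in RefSeq on build GRCm38.p6, from 250 bases before to 50 bases after the annotated start, and 140 bases of each are given below, 5′ to 3′ on the minus strand. Capitals mark the 8 bases at the place of the cyclic AMP response element (CRE, TGACGTCA), which begins 12 bases upstream of a stretch that all 5 windows share. The Gzmn window has no such place and is in lower case throughout. The intervals shown were chr14:56234623-56234762 for Gzmc, chr14:56132563-56132702 for Gzmd, chr14:56120596-56120735 for Gzme, chr14:56211398-56211537 for Gzmf, chr14:56159565-56159704 for Gzmg and chr14:56174580-56174719 for Gzmn.
Gzmc: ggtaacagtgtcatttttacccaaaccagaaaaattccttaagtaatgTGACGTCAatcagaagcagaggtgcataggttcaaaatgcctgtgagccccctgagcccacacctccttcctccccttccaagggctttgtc
Gzmd: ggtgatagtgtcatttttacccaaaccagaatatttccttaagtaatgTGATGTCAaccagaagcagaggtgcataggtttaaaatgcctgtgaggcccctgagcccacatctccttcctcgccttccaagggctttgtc
Gzme: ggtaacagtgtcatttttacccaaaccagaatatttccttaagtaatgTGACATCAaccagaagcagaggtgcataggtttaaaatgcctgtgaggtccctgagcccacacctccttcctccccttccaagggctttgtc
Gzmf: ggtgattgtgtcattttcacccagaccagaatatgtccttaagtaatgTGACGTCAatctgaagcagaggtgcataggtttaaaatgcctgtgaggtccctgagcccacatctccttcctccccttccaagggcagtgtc
Gzmg: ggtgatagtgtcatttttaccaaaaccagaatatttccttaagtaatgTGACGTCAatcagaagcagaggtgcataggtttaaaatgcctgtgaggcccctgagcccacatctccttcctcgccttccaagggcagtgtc
Gzmn: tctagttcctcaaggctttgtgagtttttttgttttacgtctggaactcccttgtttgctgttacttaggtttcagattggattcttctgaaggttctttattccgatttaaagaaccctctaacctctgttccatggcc
The CRE was intact in Gzmc, Gzmf and Gzmg. Counted from 1 at its 5′ end, Gzmd differed from it by C4T and Gzme by G5A. Relative to the annotated start it began at -57 in Gzmc, -82 in Gzmf and -77 in Gzmg, and 1.79% of all 32851 promoter windows held it on either strand. The shared stretch downstream of it, gaagcagaggtgcataggtt, was in the windows of Gzmc, Gzmd, Gzme, Gzmf and Gzmg and in no other of the 32851 windows. Over the whole window these 5 genes had 79.7% (Gzmc and Gzmf) to 93.7% (Gzmd and Gzme) identical bases, and no pair outside them exceeded 56.3%. Of the other motifs searched on both strands, the T-box half-site GGTGTGA was found in Gzmk (3.98% of all windows), the NFAT core GGAAAA in Gzma (23.4%), and AP-1 TGANTCA (7.81%) and STAT TTCNNNGAA (8.3%) in Gzmb. The palindromic estrogen response element was in none of the 10 windows and in 0.0700% of all windows. These are matches of letters and not measured binding.

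**Figure D1:**
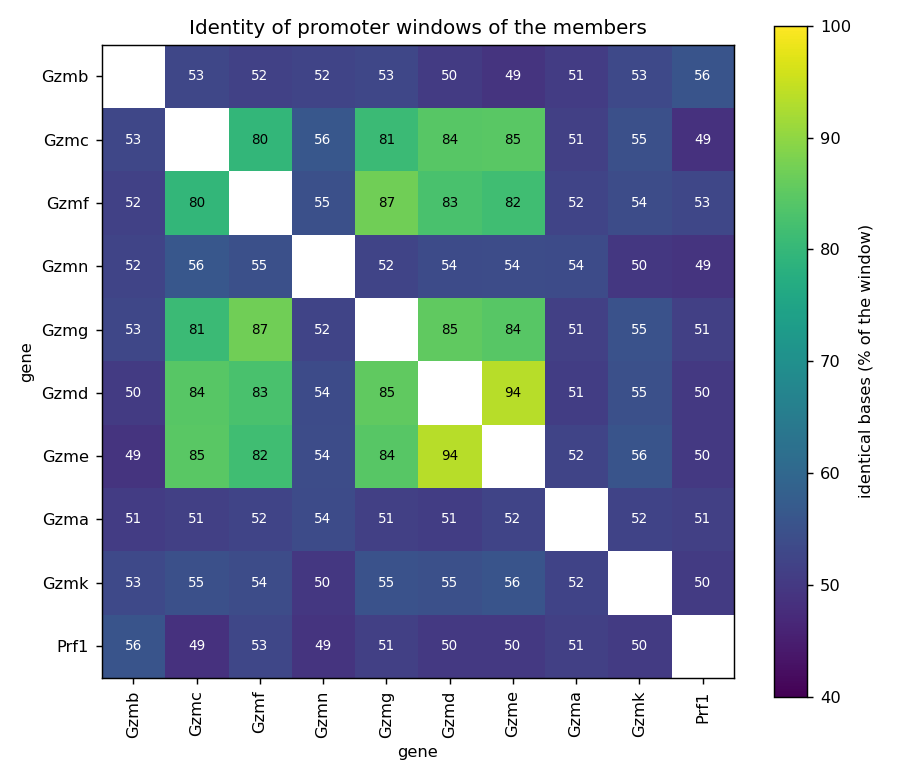
Identity of the 300-base promoter windows for each pair of members, as identical bases in percent of the window (colour and number), with genes of the chromosome 14 cluster first. Gzmc, Gzmd, Gzme, Gzmf and Gzmg form a block between 79.7% and 93.7%, while all other pairs lie at or below 56.3%.

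Levels are log2 values of the processed signal relative to the 75th percentile of the same array, so that a level of -1 is a signal at 2-fold below that percentile. Probes differ in brightness, and a level is compared between arrays and never between genes. Of all spots, 71.1% to 79.6% were well above background on an array. A level that was not well above background is only an upper bound, and where this held for both arrays of a group the fold difference is written as "at least". A difference was called when limma gave an unadjusted two-sided p below 0.05 and the fold change exceeded 2. A gene at background in a compared group was tested only through the other group, so the direction of any call was set beforehand. With 2 arrays against 2, an exact permutation test cannot go below 0.333. The arrays labelled day 7 and day 14 were scanned on different days, and the db/db and WT values in the study's own tables correspond to the arrays of the other labelled day for 40 of 40 values compared. Labelled day and scan day cannot be told apart, and no time course is read from the arrays. The strain labels were checked with 2 probes selected after their values had been seen. Thumpd1 was between 0.95 and 1.04 on the 4 WT arrays and between -9.73 and -8.70 on the 12 db/db arrays, and Xaf1 was between -5.56 and -5.09 against -0.02 to 2.13.

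The 10 genes behaved in 3 ways across the 8 groups. Gzmd, Gzme, Gzmf, Gzmg and Gzmn, all in the cluster, had spans of 5.74 to 7.79 on the log2 scale between their lowest and highest arrays. For all of these but Gzme the lowest array was at background, so the size of the span is set in part by background levels. Gzma, Gzmb and Gzmc were well above background on all 16 arrays with spans of 2.50 to 3.45. Gzmk and Prf1 were well above background on all 16 arrays and spanned 1.22 and 0.68. Gzme was also well above background on all 16 arrays, against 10 for Gzmn, 7 for Gzmf, 5 for Gzmd and 4 for Gzmg.

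**Figure D2:**
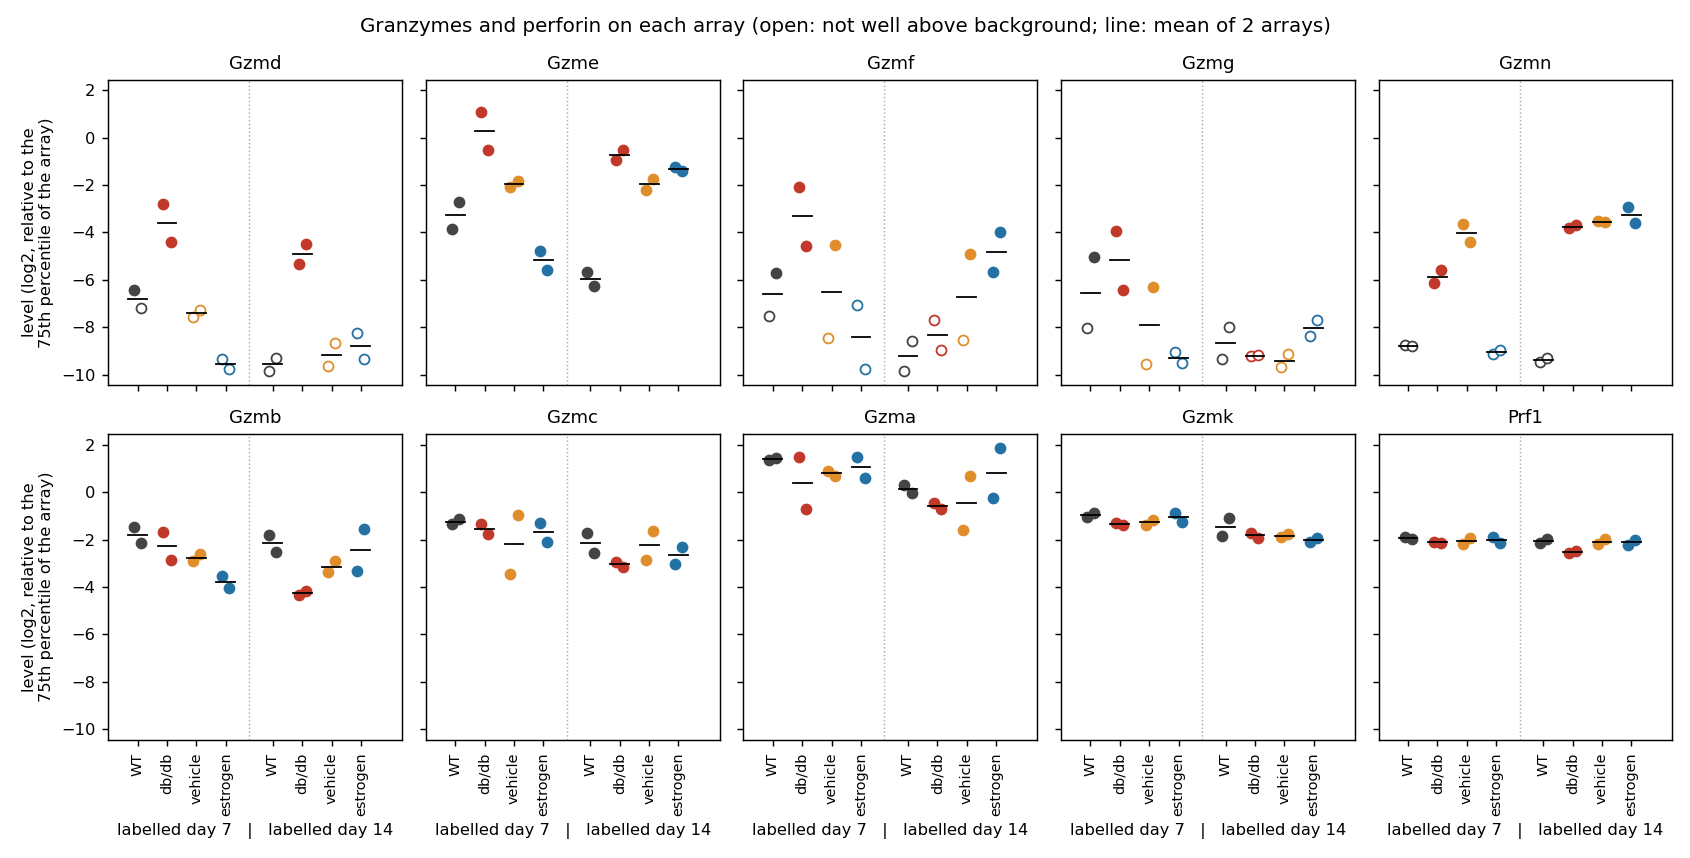
Level of each member on each of the 16 arrays (log2, relative to the 75th percentile of the array), by group and labelled day, with open points for arrays on which the probe was not well above background and a line at the mean of 2 arrays. Gzmd, Gzme, Gzmf, Gzmg and Gzmn range over 5.74 to 7.79 log2 units, whereas Prf1 stays between -2.59 and -1.91. The low end of the range is at background for Gzmd, Gzmf, Gzmg and Gzmn.

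Gzme, a granzyme of activated cytotoxic cells, was the member of the variable group that every array measured. Its level was -3.84 and -2.70 on the 2 WT arrays labelled day 7 and 1.1 and -0.51 on the db/db arrays. With sesame oil it was -2.09 and -1.83, and with estrogen -4.80 and -5.57. The 4 groups labelled day 7 did not overlap, with db/db at the top and db/db + estrogen at the bottom. For labelled day 14 it was -5.65 and -6.28 in WT, -0.96 and -0.54 in db/db, -2.20 and -1.76 in db/db + vehicle and -1.25 and -1.42 in db/db + estrogen. There the WT arrays stood alone at the bottom and the 3 db/db groups lay between -2.20 and -0.54. The second Gzme probe kept the same order of group means on the arrays labelled day 7, from -0.44 in db/db to -6.45 in db/db + estrogen, and also placed WT lowest on the arrays labelled day 14, at -5.85.

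Gzmn was at background in some groups and well above it in others. The WT arrays were not well above background, at -8.75 and -8.79 (labelled day 7) and -9.46 and -9.28 (labelled day 14). The db/db arrays were at -6.14 and -5.58 for labelled day 7 and at -3.83 and -3.69 for labelled day 14. The first 2 were dim, as the lowest signals well above background on those arrays were -7.92 and -7.70. With sesame oil the levels were -3.65 and -4.41 on the arrays labelled day 7 and -3.54 and -3.55 on those labelled day 14. Estrogen-treated wounds were back at background on the arrays labelled day 7, at -9.11 and -8.97, but reached -2.91 and -3.61 on those labelled day 14. The db/db arrays with Gzmn at background were thus the 2 labelled day 7 with estrogen, and the other 10 db/db arrays were all well above it.

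Gzmd was measured on both arrays in the untreated db/db group alone. Its levels there were -2.81 and -4.42 on the arrays labelled day 7 and -5.31 and -4.47 on those labelled day 14. Of the other 12 arrays, the WT array of replicate 1 labelled day 7 was well above background, at -6.44, and the remaining 11 were not, with levels of -9.84 to -7.17. Estrogen and sesame oil arrays were alike in this respect, with 0 of 8 well above background.

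Among arrays labelled day 7, Gzmf and Gzmg were highest on a db/db array, but unlike Gzmd their db/db arrays overlapped those of other groups. The overlap was with sesame oil for Gzmf, and with WT and sesame oil for Gzmg. Gzmf was -2.07 and -4.55 in db/db and -7.53 and -5.71 in WT, where the first array was not well above background. Its sesame oil arrays differed by the most, at -8.45 (not well above background) and -4.55. Among arrays labelled day 14, Gzmf was at background in WT and db/db but measured on both estrogen arrays, at -5.68 and -3.99, and on 1 of 2 sesame oil arrays, at -4.91. Gzmg was -3.93 and -6.42 in db/db on the arrays labelled day 7, -5.04 on 1 WT array and -6.30 on 1 sesame oil array. It was not well above background on any array labelled day 14, where its levels ran from -9.67 to -7.68.

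Gzmb, the granzyme that sets off apoptosis in target cells, had the levels -1.45 and -2.15 in WT, -1.69 and -2.85 in db/db, -2.90 and -2.62 in db/db + vehicle and -3.53 and -4.05 in db/db + estrogen on the arrays labelled day 7. Estrogen arrays were below all others, and WT and db/db overlapped. On the arrays labelled day 14 the levels were -1.81 and -2.51 in WT, -4.34 and -4.16 in db/db, -3.38 and -2.91 in db/db + vehicle and -3.31 and -1.57 in db/db + estrogen. Here the untreated db/db arrays were below all others. On that labelled day both untreated db/db arrays lay on the same slide and both WT arrays on another, with an array of each treatment on either slide. Every array on the db/db slide (-4.34 to -3.31) was below every array on the WT slide (-2.91 to -1.57). Group and slide can therefore not be fully told apart there.

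Gzma, a tryptase that cuts after basic residues, differed widely between replicates in 3 of the 8 groups. Its db/db arrays labelled day 7 were 1.49 and -0.71, its sesame oil arrays labelled day 14 were -1.60 and 0.66, and its estrogen arrays labelled day 14 were -0.24 and 1.85. The other 5 pairs were closer, among them WT at 1.36 and 1.44 and at 0.32 and -0.03, sesame oil labelled day 7 at 0.90 and 0.69 and db/db labelled day 14 at -0.47 and -0.71. The sesame oil and estrogen replicates labelled day 14 lay on different slides. On that labelled day, Gzma ran from -1.60 to -0.24 on the db/db slide and from -0.03 to 1.85 on the WT slide. Replicate spread and slide cannot be told apart there. Gzmc, although its promoter window is like that of Gzme, ranged from -3.44 to -0.95, and both of those arrays were of the sesame oil group labelled day 7. Its group means lay between -3.05 (db/db labelled day 14) and -1.25 (WT labelled day 7). Its arrays labelled day 14 were also all lower on the db/db slide than on the WT slide.

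Prf1 and Gzmk were nearly flat. Prf1 was at -1.91 and -1.98 in WT and -2.11 and -2.14 in db/db on the arrays labelled day 7, with sesame oil at -2.20 and -1.95 and estrogen at -1.91 and -2.15. Its lowest arrays were the untreated db/db pair labelled day 14, at -2.59 and -2.49, against -2.22 to -1.98 on the 6 other arrays of that labelled day. All arrays on the slide of that pair (-2.59 to -2.19) were below all arrays on the WT slide (-2.15 to -1.98). Gzmk, a tryptase-like granzyme of memory T cells, was between -1.40 and -0.87 on the arrays labelled day 7 and between -2.10 and -1.10 on those labelled day 14. Gzmm, an NK cell granzyme encoded apart from the cluster on chromosome 10 and not a member here, ranged from -4.57 to -2.78.

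Gzme, Gzmd and Gzmn were higher in db/db than in WT wounds on the arrays labelled day 7. Of the 10 members tested, 3 were called higher and 0 lower, where 5.68% of all probes tested were called higher and 8.42% lower. The median difference over the members was 0.59 and that over all probes tested -0.05. Nothing is read from these shares, because the members were selected on values of these arrays. Gzme was higher by 3.57 ± 0.53 (n = 2 and 2), which is 11.8-fold, and Gzmd by 3.19 ± 0.59. Here and below, ± is the moderated SE from limma, whose spread is pooled over all 8 groups. It is the same for a gene in every comparison and does not measure the spread of the arrays compared. Gzmn was at least 3.70-fold higher. Gzmf was 3.30 ± 1.61 and Gzmg 1.36 ± 1.2 higher without a call, the latter with overlapping arrays, and Gzmb (-0.47 ± 0.56), Gzmc (-0.32 ± 0.71), Gzma (-1.01 ± 0.88), Gzmk (-0.37 ± 0.23) and Prf1 (-0.18 ± 0.15) were not called. The Gzmn call depended on the background correction. With normexp correction and its offset of 50, its difference was 0.00, against 2.91 in the main setting.

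For labelled day 14, db/db exceeded WT in the same genes, Gzme, Gzmd and Gzmn, and Gzmb was lower. The calls numbered 3 higher and 1 lower of 8 members tested, beside 2.35% higher and 15.6% lower over all probes tested, and the members' median was -0.41 against -0.12 over all probes. Gzme was 5.22 ± 0.53 higher, or 37.2-fold, Gzmn at least 20.2-fold and Gzmd at least 9.20-fold. Gzmb was lower by 2.09 ± 0.56, and its difference was -0.98 and no longer called with the slide as a fixed block. The WT and db/db arrays labelled day 14 lay on different slides, linked only through the treated groups. Prf1 (-0.47 ± 0.15), Gzmc (-0.92 ± 0.71), Gzma (-0.73 ± 0.88) and Gzmk (-0.35 ± 0.23) were not called. With normexp correction the Gzmd difference was 0.76 and not called.

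**Figure D3:**
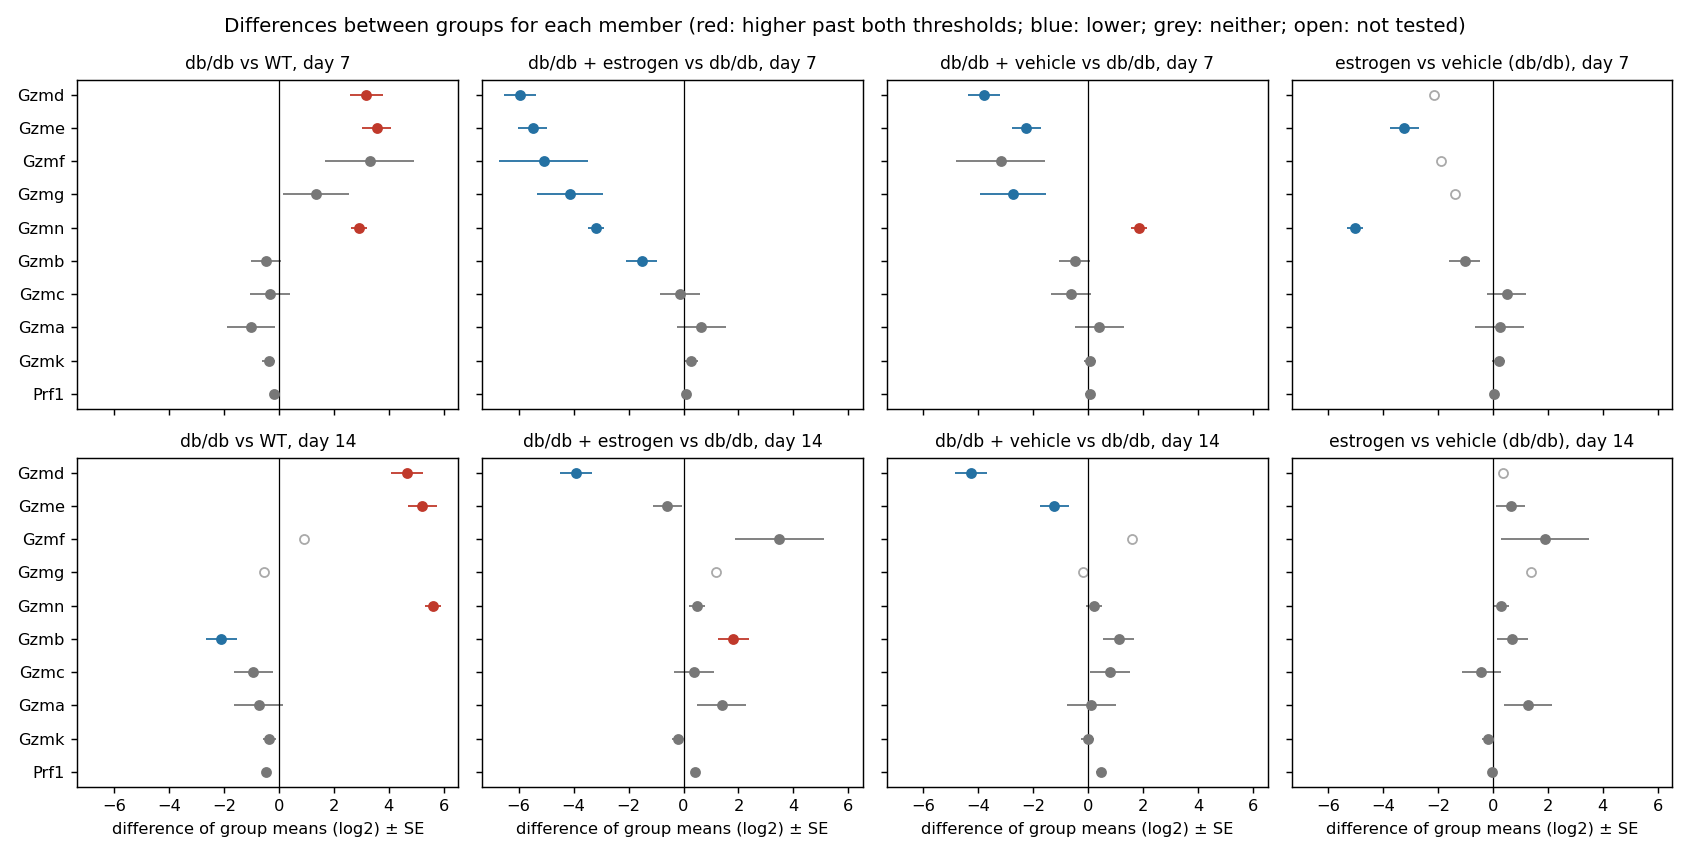
Difference of group means (log2, bars are the limma SE pooled over all 8 groups) for each member in the 8 comparisons, with called differences in red (higher) or blue (lower) and members not tested as open points without a bar. Gzmd, Gzme and Gzmn lie to the right in both db/db to WT panels, 6 members are blue in the estrogen to db/db panel for labelled day 7, and the estrogen to vehicle panel for labelled day 14 has no call.

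With estrogen, 6 of the 10 members were called lower than in untreated db/db on the arrays labelled day 7 and 0 higher, beside 4.7% lower and 5.22% higher over all probes tested. The members' median was -2.35 and that of all probes 0.04. These shares are given for reference only. Gzmd, Gzmf, Gzmg and Gzmn were at background on both estrogen arrays. They were tested through the db/db arrays alone and could only be called lower. With all 4 arrays required to be well above background, 2 members were called. Gzme fell by 5.48 ± 0.53, or 44.5-fold. Gzmd was at least 20.7-fold lower, Gzmf at least 20.2-fold, Gzmg at least 7.03-fold and Gzmn at least 4.37-fold, and Gzmb was lower by 1.52 ± 0.56. Gzma (0.65 ± 0.88), Gzmc (-0.13 ± 0.71), Gzmk (0.28 ± 0.23) and Prf1 (0.09 ± 0.15) were not called. The calls of Gzmb, Gzmf and Gzmg rested on db/db replicate 1, without which the differences were -0.94, -3.84 and -2.87 and not called, and 3 members were called in place of 6. Without estrogen replicate 2 Gzmb (-1.27) and Gzmf (-3.73) were not called. With normexp correction Gzmn (-0.33) and Gzmg (-0.65) were not called.

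Sesame oil alone also went with lower Gzmd, Gzme and Gzmg on the arrays labelled day 7. Of 10 members, 3 were called lower and Gzmn was called higher, beside 2.3% lower and 2.52% higher over all probes. Gzmd was at least 13.9-fold lower and Gzme was lower by 2.25 ± 0.53. Gzmg, measured on 1 of the 2 sesame oil arrays, was lower by 2.74 ± 1.2 with overlapping arrays and by 1.83, without a call, with a floor on dim signals, and it lost its call under 10 alternatives, among them the slide or the replicate number as a block. Gzmn was higher by 1.83 ± 0.29, and by 0.99 without a call after normexp correction.

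Between the 2 treatments on the arrays labelled day 7, Gzme was lower with estrogen than with sesame oil by 3.22 ± 0.53, and Gzmn was at least 15.5-fold lower. These were the 2 calls among 7 members tested, both lower, beside 4.33% lower and 4.66% higher over all probes. Gzmb was 1.03 ± 0.56 lower and not called, although all estrogen arrays were below the sesame oil arrays. Within slides, where each held 1 array of each group labelled day 7, the Gzme difference was -2.71 and -3.74. Comparisons that use the same untreated or sesame oil arrays are not independent of each other.

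Among arrays labelled day 14 the treated groups resembled untreated db/db in Gzmn and differed in Gzmd. With estrogen, 1 of 9 members was called higher and 1 lower, beside 2.56% higher and 1.36% lower over all probes. Gzmd was at least 9.21-fold lower and Gzmb was higher by 1.81 ± 0.56. The Gzmb call depended on estrogen replicate 2, which lay on another slide than the db/db arrays. Without that array the Gzmb difference was 0.94. With normexp correction the Gzmd difference was -1.0 and not called. Gzme (-0.59 ± 0.53), Gzmn (0.50 ± 0.29), Gzma (1.39 ± 0.88) and Prf1 (0.43 ± 0.15) were not called, and Gzmf was at least 5.94-fold higher without a call. The study listed Gzmf under its day 7 among the genes raised specifically with estrogen, at 11.23-fold. The group means of the arrays labelled day 14 differed by that same 11.23-fold, a size set by the background level of the db/db arrays. With sesame oil, 2 of 8 members were called lower and 0 higher, beside 2.2% lower and 5.31% higher over all probes. Gzmd was at least 11.9-fold lower and Gzme lower by 1.23 ± 0.53, a call that was lost on leaving out any 1 of the 4 arrays. Between estrogen and sesame oil 0 of 8 members were called, beside 0.511% higher and 0.476% lower over all probes, and 0 of 8 also reached an unadjusted p below 0.05 with limma.

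Among other genes of the perforin and granzyme route, the granule partners moved with the variable granzymes in part. The gene lists here and below were chosen with earlier results of these data known, so their calls and adjusted p-values are a description. Of 13 tested on the arrays labelled day 7, 3 were higher in db/db than in WT and 0 lower, beside 5.68% higher and 8.42% lower over all probes tested. Srgn, whose product serglycin packs granzymes in the granule, was higher by 2.70 ± 0.44 (limma adjusted p = 0.0053), Stx11, a syntaxin of granule release, by 1.91 ± 0.35 (adjusted p = 0.0087) and Serpinb6b, a serpin, by 1.37 ± 0.35 (adjusted p = 0.031). With estrogen Stx11 fell by 2.60 ± 0.35 (limma adjusted p = 0.0035) and Srgn fell by 2.69 ± 0.44 (adjusted p = 0.0076), while Serpinb6b rose by 1.44 ± 0.35 (adjusted p = 0.041). On the arrays labelled day 14, Srgn (1.80 ± 0.44, limma adjusted p = 0.020) and Stx11 (1.18 ± 0.35, adjusted p = 0.040) were higher in db/db than in WT. Srgn is also made by neutrophils and macrophages. Gzmm was called in 1 of the 8 comparisons, lower by 1.1 ± 0.38 with sesame oil than in untreated db/db on the arrays labelled day 14 (limma adjusted p = 0.19).

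The inducers, cytokines, receptors and transcription factors that turn on granzyme genes, were split. For labelled day 7, 3 of 14 tested were higher in db/db than in WT and 3 lower, beside 5.68% higher and 8.42% lower over all probes tested. Il15ra, the receptor chain that presents interleukin 15, was higher by 2.09 ± 0.44 (limma adjusted p = 0.016), and Runx3, a transcription factor of cytotoxic T cells, by 1.42 ± 0.36 (adjusted p = 0.031). Il2ra, the inducible interleukin 2 receptor chain, was higher by 3.57 ± 0.94 (limma adjusted p = 0.034). Eomes, which drives Prf1 and Gzmb in T and NK cells, was lower by 1.57 ± 0.53 (limma adjusted p = 0.077), as were Ifng (-2.55 ± 0.88) and Il2rb (-1.43 ± 0.52), all past the unadjusted threshold alone. With estrogen 6 of 14 were lower and 1 higher, beside 4.7% lower and 5.22% higher over all probes. Of these, 4 lower and 1 higher passed with the adjusted p in the call. The common receptor chain Il2rg fell by 1.61 ± 0.26 (limma adjusted p = 0.0069) and Runx3 fell by 2.23 ± 0.36 (adjusted p = 0.0074). Among arrays labelled day 14 the calls between db/db and WT were Ifng, lower by 3.57 ± 0.88 (limma adjusted p = 0.021), and Il2ra, higher by 2.16 ± 0.94 (adjusted p = 0.13). Over all probes tested there, 2.35% were called higher and 15.6% lower.

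Killing routes other than the granule and the substrates of granzymes were also counted. Tnf was higher in db/db than in WT by 3.15 ± 0.46 on the arrays labelled day 7 (limma adjusted p = 0.0034) and Fas, the death receptor, by 1.12 ± 0.24 (adjusted p = 0.015), the 2 calls among 6 tested. Over all probes tested in that comparison, 5.68% were called higher. With estrogen Tnf fell by 3.14 ± 0.46 (limma adjusted p = 0.0051). Of 12 extracellular substrates, 3 were lower in db/db than in WT on either labelled day, Col17a1, Cdh1 and Dsg3, which belong to the junctions of keratinocytes, beside 8.42% (labelled day 7) and 15.6% (labelled day 14) of all probes tested. Col17a1 was lower by 1.42 ± 0.32 (labelled day 7, limma adjusted p = 0.019) and by 1.36 ± 0.32 (labelled day 14, adjusted p = 0.018). It rose by 2.07 ± 0.32 with estrogen on the arrays labelled day 7 (limma adjusted p = 0.0061). Among the intracellular substrates, Bid, a protein of the mitochondrial death pathway, was higher by 1.04 ± 0.18 (limma adjusted p = 0.0066) in db/db than in WT on the arrays labelled day 7, and it was not called in the other 7 comparisons.

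Markers of the cells that could supply these transcripts moved in different directions. In whole-wound RNA, fewer cells of a type and less RNA per cell cannot be told apart. T cell markers were lower in db/db than in WT, 7 of 13 on the arrays labelled day 7 and 5 of 13 on those labelled day 14, with none higher, beside 8.42% and 15.6% of all probes tested. With the adjusted p in the call, 2 T cell markers passed for labelled day 7. For labelled day 14, where WT and db/db lay on different slides, 0 passed. Cd3g was lower by 2.25 ± 0.56 (limma adjusted p = 0.028) and Cd28 by 2.17 ± 0.56 (adjusted p = 0.031) on the arrays labelled day 7. NK cell markers were lower for 5 of 8 tested and 3 of 8 tested, led by Klrd1 at -2.69 ± 0.54 (labelled day 7, limma adjusted p = 0.013) and -2.92 ± 0.54 (labelled day 14, adjusted p = 0.0067). The mean level of the 13 T cell markers was -1.70 and -2.11 on the WT arrays labelled day 7 against -2.94 and -2.96 on the db/db arrays, whereas Gzme, Gzmd and Gzmn were higher in db/db. With estrogen on the arrays labelled day 7, the T cell markers had 2 higher (Cd3g and Cd28) and 0 lower calls and the NK cell markers 1 higher (Klrk1) and 0 lower. Of these calls, 0 passed with the adjusted p. Over all probes tested there, 5.22% were called higher and 4.7% lower.

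Neutrophil markers had the same order of groups as Gzme for labelled day 7, and their estrogen and WT arrays overlapped for labelled day 14. On the arrays labelled day 7, 7 of 10 were higher in db/db than in WT, beside 5.68% of all probes tested. Ltf, the granule protein lactoferrin, was higher by 8.13 ± 0.75 (limma adjusted p = 0.00033) and Camp by 7.08 ± 0.81 (adjusted p = 0.00097). With estrogen 9 of 10 were lower than in untreated db/db, beside 4.7% of all probes, with S100a8 at -5.49 ± 0.45 (limma adjusted p = 0.00053) and Ltf at -8.82 ± 0.75 (adjusted p = 0.00054). With sesame oil 5 of 10 were lower, beside 2.3% of all probes, and 2 of the 5 passed with the adjusted p in the call. The mean level of the 10 markers was 4.07 and 3.25 in db/db, 0.24 and 1.02 with sesame oil, -0.91 and -1.22 in WT and -2.47 and -2.14 with estrogen on the arrays labelled day 7, the same order as Gzme. For labelled day 14 it was -0.20 and -0.16 in WT, 0.96 and 1.73 in db/db, 0.26 and 0.15 with sesame oil and 0.77 and -0.25 with estrogen, and the estrogen arrays lay on both sides of the WT arrays, although Gzme was higher on both of them than in WT. In that set 5 of 10 markers were higher and 1 lower in db/db than in WT, 3 were lower with estrogen than in untreated db/db and 4 were lower with sesame oil. With the adjusted p in the call, 2 higher and 1 lower passed between db/db and WT, which lay on different slides. For estrogen and for sesame oil 0 passed. Over all probes, 2.35% were called higher and 15.6% lower in db/db than in WT, 1.36% lower with estrogen and 2.2% lower with sesame oil. Gzmn did not keep that order, since its sesame oil arrays exceeded the untreated db/db arrays on both labelled days. The part of any of these cells in the granzyme levels was not tested.

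**Figure D4:**
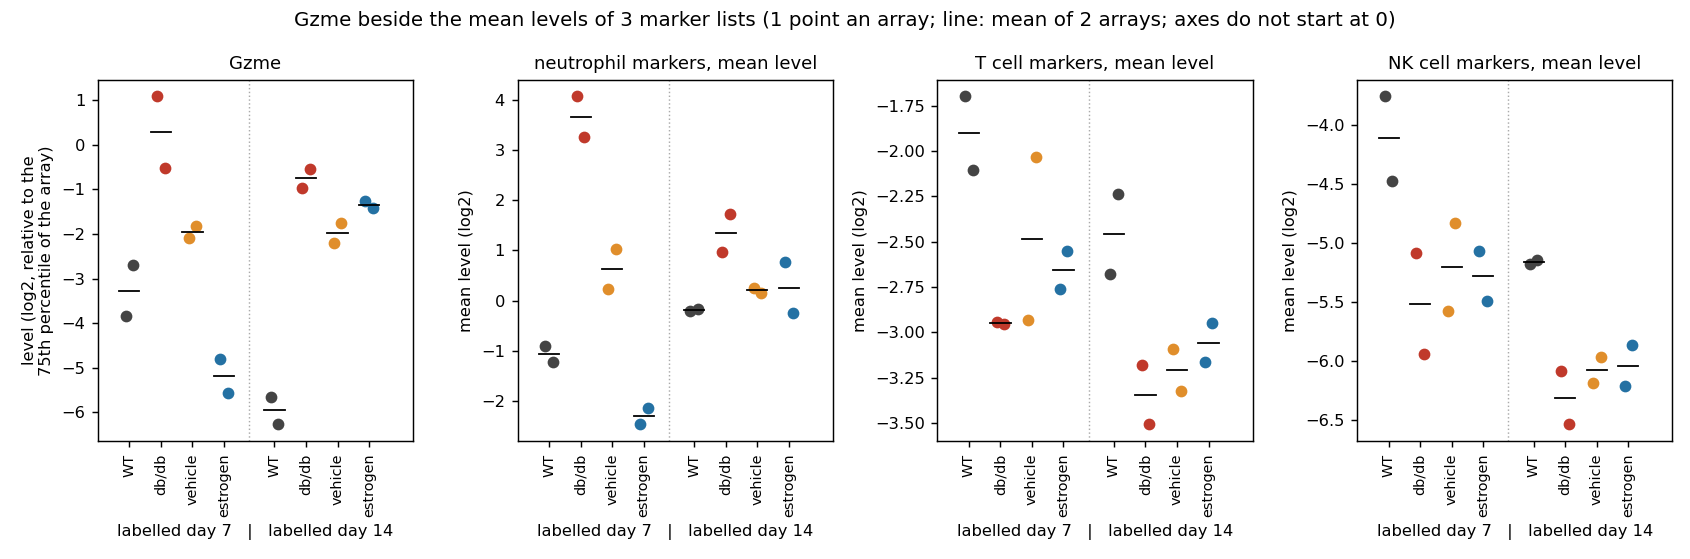
Level of Gzme (left) and mean level of the neutrophil, T cell and NK cell marker lists on each array (log2, 1 point an array, line at the mean of 2 arrays), by group and labelled day. The neutrophil mean and Gzme are both highest in the db/db arrays and lowest in the db/db + estrogen arrays labelled day 7, while the T cell and NK cell means are highest in WT.

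Macrophage, mast cell and other marker lists were read in the same way. Among arrays labelled day 7, 4 of 7 macrophage markers were higher in db/db than in WT and 1 lower, led by Cd14 at 3.34 ± 0.42 (limma adjusted p = 0.0015), and 3 of 6 mast cell markers tested, Cma1, Fcer1a and Tpsb2, were higher. With the adjusted p in the call, 3 higher and 1 lower macrophage markers passed, and 1 mast cell marker. Over all probes tested in this comparison, 5.68% were called higher and 8.42% lower. Of 5 regulatory T cell genes 1 was higher, Il10 by 2.97 ± 0.20 (limma adjusted p = 6.5e-05), and 2 were lower, Tnfrsf18 and Ikzf2, of which 0 passed with the adjusted p in the call. Of 5 plasmacytoid dendritic cell genes 2 were lower, Bst2 and Irf7, which are also induced by interferon. The tissue label was checked with 5 keratinocyte and 5 fibroblast genes, whose mean levels were 4.31 to 6.49 and 6.12 to 6.64 over the 16 arrays.

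The patterns most like those of single members were found by Pearson correlation over the 16 arrays among 16925 named genes, as a description in which all points share 8 groups and 2 scan days. Prf1 was closest to Rpl4 (r = 0.92) and had Rpl7a (r = 0.86) among its 5 nearest genes, both encoding ribosomal proteins, beside Olfr1394, D430020J02Rik and Zfp112. Gzmb was closest to Epb41 (r = 0.87), followed by Mug1, Aqp9, Tmem171 and Mug2 at 0.73 to 0.74. Gzmc was closest to Myb (r = 0.84), followed by Cyp2f2, Spn, Rassf9 and AI847159. Gzme, added to this search after its values were seen, was closest to Tnfaip3 (r = 0.90), an inhibitor of NF-kB signalling, followed by Cmtm7, Havcr2, Adgre5 and Gde1. Among the 5 genes with alike promoter windows, r was 0.73 for Gzmd and Gzme, 0.77 for Gzmf and Gzmg, 0.66 for Gzme and Gzmf, and -0.14 for Gzmc and Gzme, over levels that include arrays at background. Their remaining pairs ran from 0.05 (Gzmc and Gzmd) to 0.58 (Gzmc and Gzmg). Pairs with a member outside these 5 genes ran from -0.69 (Gzmk and Gzmn) to 0.76 (Gzme and Gzmn). Probe sequences were not used here, so how far a probe of 1 of these related genes also reads transcripts of another was not tested. Gzmd was at background on 11 arrays on which Gzme was well above it.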

How the data were processed

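Gene expression was measured in 16 skin wound samples on one-colour Agilent mouse arrays, labelled with Cy3 from 0.2 μg total RNA. The scanner files deposited by the authors hold the processed spot intensity and background flags from Feature Extraction 11.0.1.1. The series table deposited by the authors holds each intensity as a ratio to the 75th percentile of its array, which was checked against the scanner files and used as an alternative. The array number limits the precision.

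Control and outlier spots were left out and spots of a probe averaged, which gave 39429 probes. Of these, 69.6% were named through RefSeq accessions. The level was log2(processed signal) minus the 75th percentile of the array, which ran from 1091 to 2548. No spot was saturated. With several probes a gene counted by the probe with the highest mean. One limma model (3.58.1, R 4.3.3) was fitted over the 8 groups with 8 residual degrees of freedom. Probes well above background on both arrays of a compared group were tested, and adjusted p-values (Benjamini-Hochberg) were taken over them. A call needed an unadjusted p below 0.05 and a fold change above 2, the thresholds of the study. The floor behind "at least" is the lowest signal well above background on the array. Code was tested on simulated data.

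The members and gene lists were chosen with earlier results of these data known. Named are all members and Gzmm, and from each list the 2 called genes of lowest p, or every called gene where a list had 5 or fewer, in a comparison described. Il12b was not on the array. A called gene of the intracellular substrate list is not reported here. The alternatives were normexp background, quantile normalization, other filters, a floor, the series table, 4 arrays alone, slide and replicate blocks, adjusted p, the median probe and each array left out.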

Additional observations from a re-analysis of the deposited data

Results flagged for a closer look

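For several members every array of one treatment lay above the other on one labelled day and below it on the other labelled day. The difference between the labelled days was not tested, not all of the single differences were called, and labelled day cannot be told apart from scan day. With 2 arrays a group, single outlying arrays could not be sought, since that takes groups of at least 4. Gzmb was lower with estrogen than in untreated db/db by 1.52 on the arrays labelled day 7 and higher by 1.81 on those labelled day 14, both called, a contrast of -3.33. Either Gzmb call could be lost by leaving out a single array. For Gzmf the lower group was at background on both labelled days, so only the order was measured, and the sizes, -5.08 (called) and 3.49 (not called) with a contrast of -8.57, are set by background levels. For Gzmn the estrogen arrays labelled day 7 were at background, so the difference of -3.18 (called) is likewise set by background levels, as is the contrast of -3.68 with the 0.50 (not called) of labelled day 14. Gzmk had 0.28 and -0.20, neither called, a contrast of 0.475. Gzme was lower with estrogen than with sesame oil by 3.22 on the arrays labelled day 7 (called) and higher by 0.64 on those labelled day 14 (not called), a contrast of -3.87. This held for the main Gzme probe, whereas the second probe gave 0.46 with overlapping arrays on those labelled day 14.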

How the results depend on the processing

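Counts of called members depended most on the filter and the threshold. When probes had to be well above background on all 4 arrays, the arrays labelled day 7 gave 1 call between db/db and WT, 2 for estrogen against db/db, 2 for sesame oil against db/db and 1 for estrogen against sesame oil, and those labelled day 14 gave 2, 1 and 1 for the first 3 comparisons. That filter removes members at background in 1 group. With the adjusted p in the call, estrogen against db/db had 3 calls (labelled day 7) and 0 (labelled day 14), and sesame oil against db/db had 1 on either labelled day. Normexp background left 1 call for estrogen against db/db on the arrays labelled day 14. Quantile normalization and the slide as a fixed block each left 1 call for sesame oil against db/db on the arrays labelled day 14, and the slide block gave 1 call there for estrogen against sesame oil. For these 3 settings the cause was not tested.

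Leaving out each array in turn gave 3 to 6 calls (labelled day 7) and 1 to 3 (labelled day 14) for estrogen against db/db, 3 to 6 and 1 to 1 for sesame oil against db/db, 2 to 3 and 0 to 2 for estrogen against sesame oil, and 3 to 4 and 4 to 4 for db/db against WT. The lone array left in a group was assumed to vary like the other groups. For labelled day 7, sesame oil against db/db went from 4 to 6 calls without sesame oil replicate 2. For labelled day 14, estrogen against db/db had 1 call without estrogen replicate 2, and estrogen against sesame oil had 2 without estrogen replicate 1 and 1 without sesame oil replicate 2.

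Arrays labelled day 7 with the same replicate number shared a slide, and nothing in the labels pairs their animals. Same-numbered arrays had correlations of their deviations from group means between -0.454 and 0.389, so no pairing was assumed. The replicate block left 1 call for sesame oil against db/db on the arrays labelled day 14. Across the single-gene differences, 1004 repeats kept the call and its direction or, where uncalled, moved by no more than their SE. The direction of uncalled values could change among these. Of the other repeats, 39 lost the call, 19 gained one, 40 uncalled values moved by more than their SE, and no called difference reversed.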
